A study of Homo sapiens with 6 samples.

Results

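Hypoxia-inducible factors (HIFs) and a set of their non-glycolytic targets were examined in U87 cells, a human glioblastoma line, with and without a dominant negative form of the endoplasmic reticulum stress sensor IRE1alpha. The 10 genes were chosen by name, with earlier results of these data known. They are the alpha subunits HIF1A and EPAS1, the oxygen-sensing hydroxylases EGLN1 and EGLN3, and the targets NDRG1, CA9, CA12, BNIP3, BNIP3L and KDM3A. Every probe set whose only annotated gene symbol was one of these was taken, which gave 17 of the 22215 non-control probe sets of the array and covered 9 of the 10 genes. CA12 had 6 probe sets, EPAS1, BNIP3 and BNIP3L had 2 each, and HIF1A, EGLN1, EGLN3, NDRG1 and KDM3A had 1 each. No probe set carried CA9 as its single symbol in the annotation used, so CA9 was not analysed here.

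RNA was measured on 6 Affymetrix arrays, 1 per sample. 3 samples were U87 cells of the clone U87 IRE1.NCK DN, which express the dominant negative IRE1alpha transgene (IRE1dn), and 3 were U87 cells carrying the empty plasmid (ctrl). All were grown for 16 h in medium with 10% serum and glutamine before RNA isolation, and no label names a hypoxic treatment or an oxygen level. The labels name 1 clone for the IRE1dn cells and no promoter for the transgene, so the transgene and the clone cannot be told apart. Whether the 3 samples of a group came from independent cultures is not labelled either. The p-values therefore reflect sample-to-sample spread that may be purely technical.

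HIF alpha subunits pair with the constitutive beta subunit ARNT and switch on genes through a short DNA element, the hypoxia response element. With oxygen, EGLN prolyl hydroxylases mark the alpha subunits for binding by VHL and destruction by the proteasome, so HIF activity is set largely at the level of protein, which arrays do not measure. Among the targets, EGLN1 and EGLN3 feed back on the pathway, carbonic anhydrases regulate pH, BNIP3 and BNIP3L recruit mitochondria for autophagy, KDM3A removes methyl groups from histone H3, and NDRG1 is a stress-responsive cytosolic protein linked to growth and differentiation.

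The core of the response element is ACGTG or GCGTG. Promoter windows from 250 bases before to 50 bases after the annotated start were read from RefSeq (GRCh38.p14), where 8 of the 10 genes had an entry, in 10 windows, and NDRG1 and BNIP3L had none. A core on either strand was found in 8 of these 10 windows, which belong to 7 of the 8 genes, HIF1A and KDM3A having 2 windows each and those of KDM3A sharing their match, while 48.4% of all 35116 windows held one (21.4% held ACGTG and 36.5% held GCGTG, or their reverse complements CACGT and CACGC). EGLN3 had none in its window. The 4 windows below, written 5′ to 3′ on the strand of the gene with the core letters in capitals, belong to 3 genes that rose and 1 that fell in IRE1dn cells. BNIP3 held 6 matches, placed between 143 and 104 bases before the start, of which a CACGT and an ACGTG overlap as 1 palindrome that begins 134 bases before it. EGLN1 had an ACGTG 13 bases and KDM3A a GCGTG 26 bases before the start. KDM3A has a further annotated start with the same match in its window. EPAS1 had a GCGTG 117 bases before the start. A match of these letters describes the sequence and does not show a site in use.
BNIP3 promoter, chr10:131981874-131982173, minus strand: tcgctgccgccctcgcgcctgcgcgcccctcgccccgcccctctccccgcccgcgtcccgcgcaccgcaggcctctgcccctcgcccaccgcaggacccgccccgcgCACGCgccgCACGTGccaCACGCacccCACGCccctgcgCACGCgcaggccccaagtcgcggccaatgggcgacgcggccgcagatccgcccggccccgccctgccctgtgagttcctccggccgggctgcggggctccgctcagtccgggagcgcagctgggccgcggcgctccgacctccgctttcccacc
EGLN1 promoter, chr1:231422238-231422537, minus strand: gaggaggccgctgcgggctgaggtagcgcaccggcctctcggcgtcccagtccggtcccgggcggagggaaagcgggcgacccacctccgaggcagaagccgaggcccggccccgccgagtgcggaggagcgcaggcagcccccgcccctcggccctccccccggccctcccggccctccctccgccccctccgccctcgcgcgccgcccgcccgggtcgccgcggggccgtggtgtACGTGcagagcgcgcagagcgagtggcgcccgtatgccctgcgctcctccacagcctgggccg
KDM3A promoter, chr2:86441121-86441420, plus strand: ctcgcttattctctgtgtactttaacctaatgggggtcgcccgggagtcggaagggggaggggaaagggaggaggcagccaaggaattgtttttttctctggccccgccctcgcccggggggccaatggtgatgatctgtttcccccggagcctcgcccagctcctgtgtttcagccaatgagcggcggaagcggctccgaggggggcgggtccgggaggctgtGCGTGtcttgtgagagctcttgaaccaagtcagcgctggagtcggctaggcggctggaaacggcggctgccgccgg
EPAS1 promoter, chr2:46297157-46297456, plus strand: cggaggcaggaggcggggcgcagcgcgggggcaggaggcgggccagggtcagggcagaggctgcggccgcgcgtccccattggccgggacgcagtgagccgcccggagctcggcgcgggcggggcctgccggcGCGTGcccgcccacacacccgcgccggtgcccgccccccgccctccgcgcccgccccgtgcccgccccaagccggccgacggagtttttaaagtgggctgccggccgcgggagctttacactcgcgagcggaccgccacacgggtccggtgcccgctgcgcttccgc

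The arrays as a whole were on a comparable scale. Deposited intensities are linear and already scaled, with medians of 18.4 to 21.03 signal units per array, and 60.4% to 61.8% of probe sets lay above 7.55 units, the 40th percentile of probe set means, which serves here as the mark of a dim signal. ERN1, the gene of IRE1alpha, was low in both groups, at 11.1 ± 1.58 units in IRE1dn cells and 12.3 ± 1.53 units in ctrl cells (SD, n = 3 each; limma adjusted p = 0.848), and because its probes may fall outside the transgene this is no check of the labels. IRE1dn array 3 had an ACTB 3′ to 5′ ratio of 1.64, against 1.09 to 1.21 on the other 5 arrays, and spike-in signals 1.71 times the ctrl mean, and without that array the genes below still counted 6 higher and 1 lower. Mesenchymal markers of U87 cells were bright (VIM 3825 units in IRE1dn cells and 2787 units in ctrl cells, CD44 1669 units in IRE1dn cells and 1663 units in ctrl cells), while the glial markers GFAP and S100B were at 1.55 units or less in both groups. NES was dimmer, at 34.4 units in IRE1dn cells and 21.3 units in ctrl cells. SOX2 was dimmer still, at 5.26 units in IRE1dn cells and 4.47 units in ctrl cells. CD44 is given here by its brightest probe set. Of its 8 probe sets, 7 had lower values in IRE1dn cells and 3 passed as lower. Of the 9 glial and mesenchymal markers, TNC and CHI3L1 rose and OLIG2 fell, although all 3 calls ended on leaving out any 1 of the IRE1dn arrays, and that of OLIG2 also without ctrl array 1 or 2. OLIG2 measured 3.42 units in IRE1dn cells, under the dim mark, and 16.4 units in ctrl cells. The second OLIG2 probe set had a log2 difference of 0.14. Their part in the results below was not tested. Of 15 epithelial, endothelial, blood and neuronal markers with a probe set, only EPCAM passed the threshold, at 2.57 units in IRE1dn cells and 9.74 units in ctrl cells, a call that ended without any single array except ctrl array 2 (limma adjusted p of 0.0662 to 0.104). Only the neuronal gene SNAP25 had a group mean above 20 units, at 256 units in IRE1dn cells and 194 units in ctrl cells.

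Of the 9 genes measured, 6 were higher in IRE1dn cells, 1 was lower and 2 did not pass the test (limma, Benjamini-Hochberg adjusted p under 0.05 over all 22215 probe sets, each gene called through its probe set with the highest mean). Over all 11963 genes, 9.2% were called higher and 8.67% lower, and among genes with a mean above the dim mark these shares were 13.2% and 12.5%. In either direction, 17.9% of all genes passed. Of the 6 that rose 5 did so by at least 2-fold, as did 5.78% of all genes, and the 1 that fell did so too, as did 4.56%. In 6 genes every IRE1dn array was above every ctrl array, and in 1 every IRE1dn array was below, against 19.4% and 17.6% of all genes. The median log2 difference of the 9 genes, IRE1dn minus ctrl, was 1.12, against 0.017 over all genes. Counted by probe set, 8 of the 17 were higher and 2 were lower, while 8.15% and 7.05% of all probe sets were (15.2% in either direction). The same 8 and 2 probe sets had no overlap between groups, against 18.4% of all probe sets above and 15.2% below. Because the genes were chosen with earlier results of these data known, these counts describe these arrays. In bulk RNA, a smaller share of cells with a transcript and less of it per cell cannot be told apart. EPAS1 was the gene that fell, and EGLN3 and CA12 were the genes that did not pass.

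**Figure D1:**
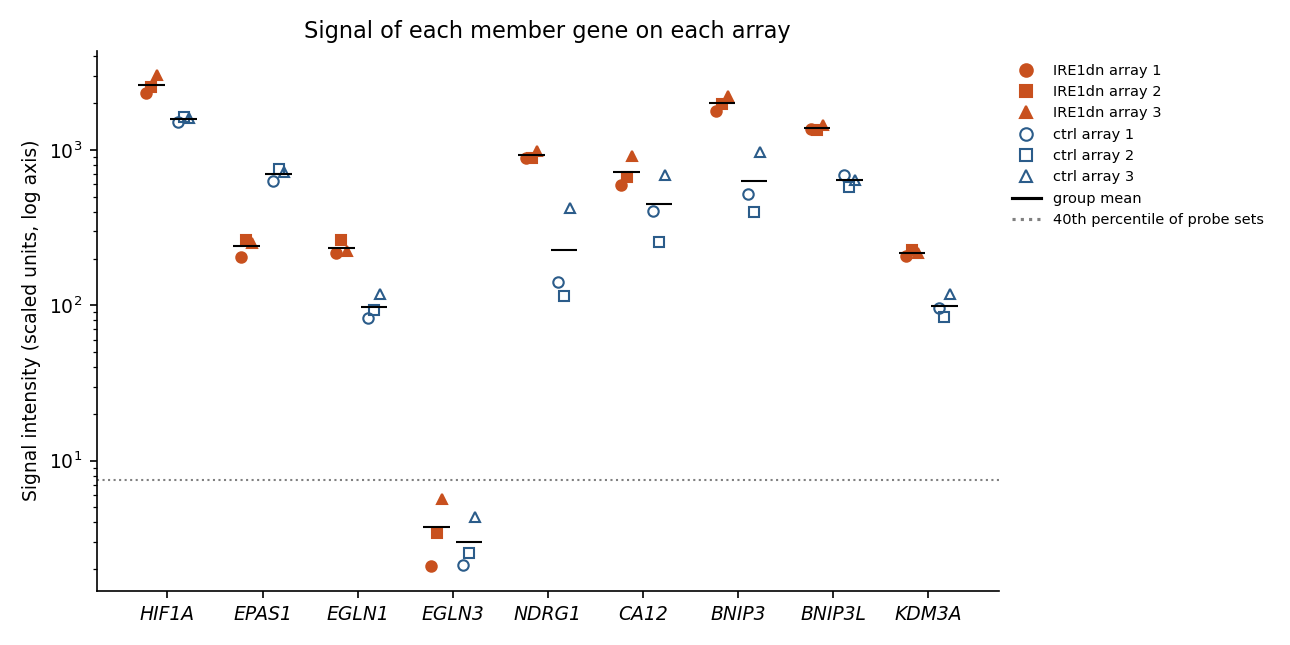
Signal intensity of the 9 measured genes on each array (log axis, scaled units), with IRE1dn arrays as filled symbols on the left of each gene and ctrl arrays as open symbols on the right; black bars are group means and the dotted line is the 40th percentile of probe sets at 7.55 units. The groups do not overlap for HIF1A, EPAS1, EGLN1, NDRG1, BNIP3, BNIP3L and KDM3A, and they overlap for EGLN3 and CA12.

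The alpha subunits went in opposite directions. HIF1A, the broadly expressed alpha subunit, measured 2311, 2545 and 3024 units on IRE1dn arrays 1 to 3, against 1511, 1618 and 1602 units on ctrl arrays 1 to 3. Every IRE1dn array was above every ctrl array, and the lowest IRE1dn array stood 1.43 times above the highest ctrl array. The log2 difference was 0.73 (SE 0.16; limma adjusted p = 0.0165), the smallest among the 6 genes that rose. Its call ended without IRE1dn array 2 (0.75, limma adjusted p = 0.0772) and without an intensity trend in the variance (adjusted p = 0.0628), which leaves the size as it is. The call also ended with ctrl array 2 and IRE1dn array 3 both left out (0.64, limma adjusted p = 0.0940). Without IRE1dn array 3 alone, its highest array, HIF1A passed narrowly (0.62, limma adjusted p = 0.0482), as it did with equal medians (0.66, limma adjusted p = 0.0443).

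EPAS1, the HIF alpha subunit first described in endothelium, measured 205, 264 and 252 units on IRE1dn arrays 1 to 3, against 633, 753 and 724 units on ctrl arrays 1 to 3. The highest IRE1dn array reached 0.417 of the lowest ctrl array. The log2 difference was -1.55 (SE 0.16; limma adjusted p = 0.000537), and leaving out any 1 array kept it between -1.62 and -1.44. The dimmer EPAS1 probe set, 200879_s_at, read 15.0, 6.89 and 5.36 units on IRE1dn arrays and 25.7, 54.5 and 49.5 units on ctrl arrays. It also fell (log2 difference -2.09, SE 0.43; limma adjusted p = 0.0118), although the call ended without IRE1dn array 2 or 3 (adjusted p of 0.0562 and 0.0570), and with a pseudocount of 16 its size was -1.22.

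The opposite movement was compared within arrays. The log2 signal of HIF1A minus that of EPAS1 was 3.48, 3.26 and 3.57 on IRE1dn arrays 1 to 3, against 1.25, 1.10 and 1.14 on ctrl arrays 1 to 3. The level of this value depends on the probes, so its shift between groups is what can be read. That shift was 2.27, with SDs of 0.16 in IRE1dn cells and 0.08 in ctrl cells (n = 3 each; exact permutation test, two-sided, p = 0.1, the smallest that 3 against 3 arrays allows; 0.15 after adjustment over 3 pairs of related genes, which were picked after values were seen).

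Partners and degraders of the alpha subunits were listed as 16 genes, of which 15 had a probe set. Of these 3 rose (20%) and 1 fell (6.67%), against 9.2% and 8.67% of all genes, with a median log2 difference of 0.062. Of the 15, 13 lay above the dim mark, where the shares of all genes were 13.2% and 12.5%. ARNT2, a beta subunit found mainly in nervous tissue, rose to 48.3 ± 12.0 units in IRE1dn cells, against 15.8 ± 2.72 units in ctrl cells (SD, n = 3 each; log2 difference 1.496, SE 0.29; limma adjusted p = 0.00953; adjusted p = 0.0507 without IRE1dn array 3). OS9, a lectin of endoplasmic reticulum quality control that has been reported to bind HIF1A, and SIAH1, a ubiquitin ligase, rose by 0.84 and 0.65, and both calls ended without any 1 of the IRE1dn arrays, that of SIAH1 also without ctrl array 1. The dimmer SIAH1 probe set had a log2 difference of -0.20 and did not pass. ELOC, elongin C of the VHL ubiquitin ligase, fell to 709 ± 85.7 units in IRE1dn cells, against 1289.9 ± 220.3 units in ctrl cells (log2 difference -0.86, SE 0.17; limma adjusted p = 0.0111; adjusted p = 0.0711 without IRE1dn array 2), and both ELOC probe sets fell. The count of genes that rose was 0 without IRE1dn array 3 and 1 without IRE1dn array 1 or 2, and 0 fell without IRE1dn array 2.

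ARNT, HIF1AN and VHL did not pass (limma adjusted p of 0.769, 0.832 and 0.662). ARNT, the common beta subunit, measured 33.8 ± 12.9 units in IRE1dn cells and 36.6 ± 1.98 units in ctrl cells (log2 difference -0.18, SE 0.31). HIF1AN, the asparaginyl hydroxylase that blocks coactivator binding, measured 49.4 ± 9.48 units in IRE1dn cells and 45.6 ± 5.76 units in ctrl cells (0.10, SE 0.24). VHL was near the floor of the array, at 1.01 ± 0.61 units in IRE1dn cells and 1.79 ± 1.35 units in ctrl cells (SD, n = 3 each), so a change of it could not be read. EGLN2 had no probe set with a single symbol.

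The oxygen sensors differed in whether they could be read at all. EGLN1, the main prolyl hydroxylase of HIF1A with normal oxygen, measured 216, 262 and 225 units on IRE1dn arrays 1 to 3, against 82.5, 93.2 and 117 units on ctrl arrays 1 to 3. The groups did not overlap, with the lowest IRE1dn array 1.83 times the highest ctrl array, and the log2 difference was 1.26 (SE 0.18; limma adjusted p = 0.00258). Its single probe set, 221497_x_at, is of a type that can bind other transcripts, and no further EGLN1 probe set was there to compare. EGLN3, a hydroxylase that hypoxia induces in many cell types, read 2.10, 3.43 and 5.64 units on IRE1dn arrays and 2.15, 2.54 and 4.32 units on ctrl arrays. These signals lie under the dim mark of 7.55 units and overlap, and the difference of 0.18 had a 95% interval of -0.67 to 1.03 (limma adjusted p = 0.815), so a change of EGLN3 could not be detected on these arrays.

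**Figure D2:**
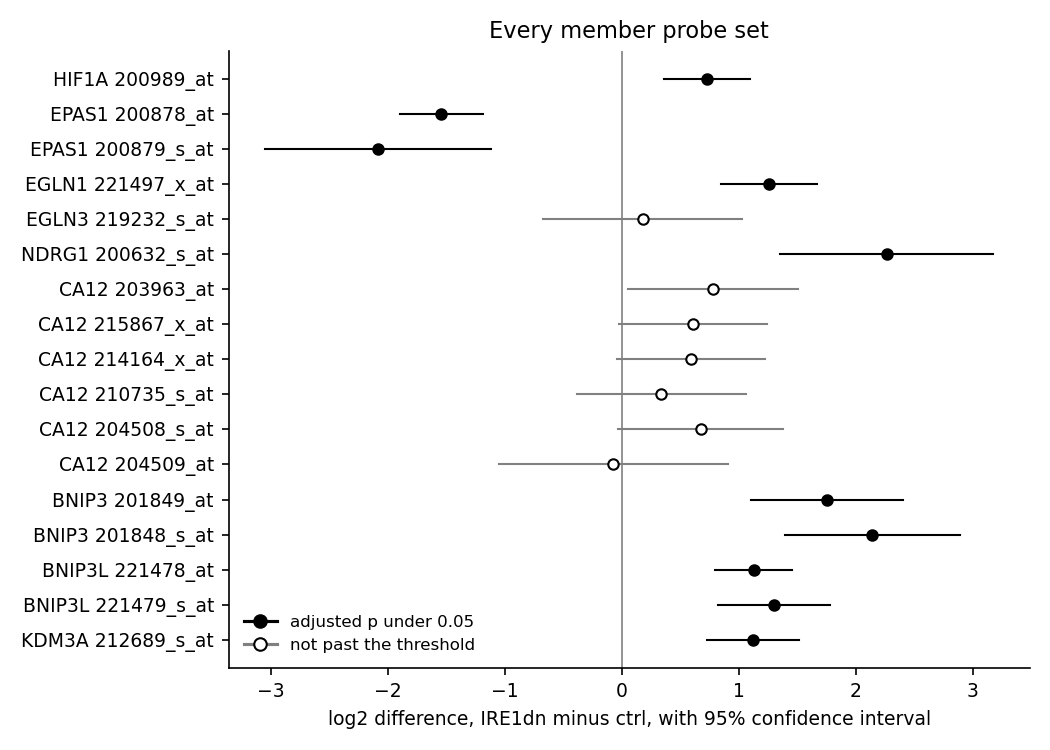
Log2 difference (IRE1dn minus ctrl) of all 17 probe sets with its 95% confidence interval from limma; filled points passed an adjusted p of 0.05 over all probe sets. Both EPAS1 probe sets lie left of 0, both BNIP3 and both BNIP3L probe sets lie right of it, and none of the 6 CA12 probe sets passed.

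NDRG1 had the largest difference of the 9 genes. It measured 893, 890.1 and 981 units on IRE1dn arrays 1 to 3, against 140.3, 115 and 426 units on ctrl arrays 1 to 3. IRE1dn arrays were close together, the highest being 1.10 times the lowest, while the ctrl arrays spanned 3.72 times, with array 3 the high one. The lowest IRE1dn array still stood 2.09 times above that ctrl array, and the log2 difference was 2.26 (SE 0.40; limma adjusted p = 0.00662). Without ctrl array 3 it was 2.84 and without ctrl array 2 it was 1.90. Its relatives NDRG2, NDRG3 and NDRG4 did not pass, with log2 differences of -0.69, 0.15 and -0.026 (limma adjusted p of 0.589, 0.623 and 0.984). NDRG2, at 3.96 units in IRE1dn cells and 9.76 units in ctrl cells, had a mean log2 signal under the dim mark. NDRG4 was not far above it, at 12.5 units in IRE1dn cells and 14.4 units in ctrl cells. With SEs of 0.72 and 0.47, a change of NDRG2 or NDRG4 could hardly be read.

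The mitophagy receptors BNIP3 and BNIP3L rose in both probe sets of each. The brighter BNIP3 probe set, 201849_at, measured 1788, 1982 and 2212 units on IRE1dn arrays 1 to 3, against 523, 399.6 and 971 units on ctrl arrays 1 to 3. The log2 difference was 1.75 (SE 0.29; limma adjusted p = 0.00455), and the lowest IRE1dn array was 1.84 times the highest ctrl array, which again was array 3. The other BNIP3 probe set, 201848_s_at, measured 1014, 1078 and 1172 units on IRE1dn arrays, against 258, 136 and 418 units on ctrl arrays (log2 difference 2.14, SE 0.33; limma adjusted p = 0.00360).

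BNIP3L, also called NIX, which clears mitochondria from maturing red cells, measured 1360.25, 1349.6 and 1448 units on IRE1dn arrays 1 to 3, against 693, 574 and 641 units on ctrl arrays 1 to 3. Here the ctrl arrays were close, within 1.21 times, and array 3 was not the highest. The log2 difference was 1.13 (SE 0.14; limma adjusted p = 0.00152), and the other probe set, 221479_s_at, gave 1.30 (SE 0.21; limma adjusted p = 0.00462), from 781, 804 and 706 units on IRE1dn arrays and 403, 221 and 329 units on ctrl arrays. The log2 difference of BNIP3 exceeded that of BNIP3L by 0.63, with SDs of 0.11 among IRE1dn arrays and 0.61 among ctrl arrays (exact two-sided permutation p = 0.3, where 3 against 3 arrays cannot go below 0.1).

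Of 14 other mitophagy genes with a probe set, 1 rose (7.14%) and 4 fell (28.6%), against 9.2% and 8.67% of all genes, with a median log2 difference of -0.37. All 14 lay above the dim mark, where the shares of all genes were 13.2% and 12.5%. BNIP1 did not pass through its brightest probe set, but 2 of its 3 probe sets were called lower. SQSTM1, the cargo adaptor p62, fell to 268 ± 18.5 units in IRE1dn cells, against 878 ± 241 units in ctrl cells (SD, n = 3 each; log2 difference -1.67, SE 0.21; limma adjusted p = 0.00154), in both of its probe sets. MAP1LC3B (-0.74) and GABARAPL2 (-0.67), which coat autophagosomes, and OPTN (-0.70), another cargo adaptor, fell less. Their calls were fragile. That of MAP1LC3B ended without any 1 of the IRE1dn arrays or ctrl array 2, that of GABARAPL2 without any 1 of the IRE1dn arrays or ctrl array 1, and that of OPTN without any single array except IRE1dn array 3. PINK1, the kinase that marks damaged mitochondria, rose by 0.71 (SE 0.19; limma adjusted p = 0.0364), a call that also ended without any single array except ctrl array 3. OPTN and PINK1 each passed in 1 of their 2 probe sets. Without 1 array the list had 1 to 3 genes that fell, 1 of them without IRE1dn array 1 or 2, and 0 or 1 that rose.

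KDM3A, a demethylase of histone H3 lysine 9 that is itself a HIF target, measured 207, 225 and 217 units on IRE1dn arrays 1 to 3, against 95.5, 84.2 and 119 units on ctrl arrays 1 to 3. The groups did not overlap, the lowest IRE1dn array being 1.74 times the highest ctrl array. The log2 difference was 1.12 (SE 0.17; limma adjusted p = 0.00351). Of 9 other demethylases of this residue 1 rose (11.1%, near the 9.2% of all genes), and the other 8 did not pass. That gene was KDM4B, also a known HIF target, with 157 ± 3.54 units in IRE1dn cells and 68.1 ± 19.6 units in ctrl cells (log2 difference 1.22, SE 0.22; limma adjusted p = 0.00704). All 5 KDM4B probe sets had higher values in IRE1dn cells, and 2 passed.

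CA12, a membrane-bound carbonic anhydrase facing outward, did not pass in any of its 6 probe sets. The brightest, 203963_at, measured 596, 670.1 and 908 units on IRE1dn arrays 1 to 3, against 404, 256 and 694 units on ctrl arrays 1 to 3. Ctrl array 3 lay inside the IRE1dn range, and the log2 difference was 0.78 (95% interval 0.050 to 1.502; limma adjusted p = 0.148). Of the other probe sets, 4 gave differences of 0.34 to 0.67 (adjusted p of 0.191 to 0.556), and 204509_at was dim, at 4.06 units in IRE1dn cells and 4.39 units in ctrl cells. On the 5 bright probe sets ctrl array 3 was 2.23 to 2.71 times ctrl array 2. Without ctrl array 3 all 5 passed, with log2 differences of 0.77 to 1.14 (limma adjusted p of 0.0108 to 0.0326), and without ctrl array 2 they gave 0.12 to 0.43 and none passed.

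Other carbonic anhydrases were hardly measured. Of 15 carbonic anhydrase and pH transport genes with a probe set, 4 had a mean above the dim mark, and 1 rose (6.67%, against 9.2% of all genes) while the other 14 did not pass. The gene that rose was SLC4A4, a sodium bicarbonate cotransporter, with 105 ± 12.0 units in IRE1dn cells and 31.2 ± 11.9 units in ctrl cells (SD, n = 3 each; log2 difference 1.75, SE 0.27; limma adjusted p = 0.00335). All 4 SLC4A4 probe sets had higher values in IRE1dn cells, and 2 passed.

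The ctrl arrays differed among themselves in the targets, and ctrl array 3 was usually the high one. It was the highest of the ctrl arrays in 12 of the 17 probe sets, among them all 6 of CA12, and the lowest in 0. By gene it was the highest in 6 of the 9. Ctrl array 2 was the lowest in 10 of the 17 probe sets. Of the 8 genes above the dim mark, ctrl array 2 was the lowest in 5, against 26.7% of all such genes. Among all probe sets above the dim mark, ctrl array 3 was the highest of its group in 33.4%. Relative to the mean of the other two, ctrl array 3 was 3.34 times higher for NDRG1, 2.10 times for the brightest CA12 probe set and for 201849_at of BNIP3, 1.34 times for EGLN1 and 1.32 times for KDM3A. For HIF1A, EPAS1 (200878_at) and BNIP3L (221478_at) the same ratio was 1.02, 1.04 and 1.01. NDRG1, CA12 and BNIP3 were spread over the ctrl arrays, and the brighter probe sets of both alpha subunits were not. The same order was seen outside these genes: ctrl array 3 was highest in 11 of 12 glycolysis genes and in 19 of 34 other HIF targets above the dim mark, against 33.9% of all such genes. Its ACTB 3′ to 5′ ratio of 1.19 and its GAPDH ratio of 0.869 were close to those of the other ctrl arrays (1.16 and 1.21 for ACTB, 0.911 and 0.923 for GAPDH), and the cause was not tested.

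**Figure D3:**
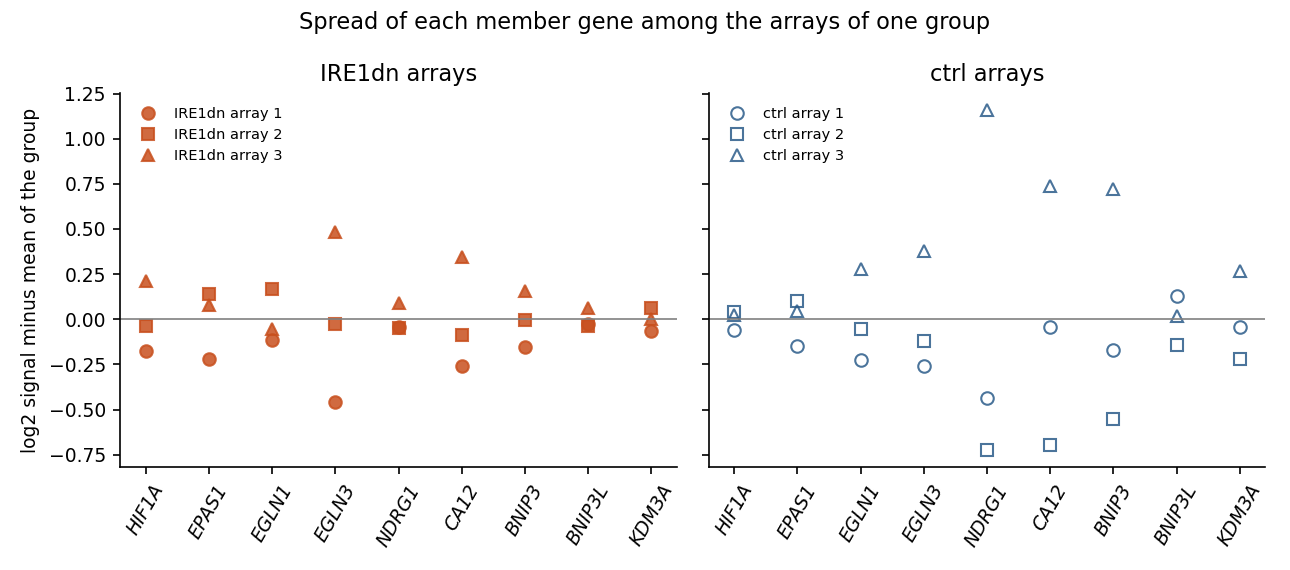
Log2 signal of each gene minus the mean of its own group, for IRE1dn arrays on the left and ctrl arrays on the right. Ctrl array 3 lies 1.16 above its group for NDRG1, 0.74 for CA12 and 0.72 for BNIP3, while the IRE1dn arrays reach at most 0.48 above their group mean, for EGLN3.

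The SD of log2 signals was larger among ctrl arrays for 6 of the 9 genes (66.7%), close to the 63.9% of all genes, and for 12 of the 17 probe sets, of which 5 belong to CA12. The exceptions among probe sets were HIF1A, both EPAS1 probe sets, and the dim EGLN3 and CA12 204509_at probe sets. IRE1dn array 3 was the highest of its group in 9 of the 17 probe sets and array 1 in 3, against 33.6% and 39.3% of all probe sets above the dim mark. By gene, IRE1dn array 3 was the highest in 6 of the 9 and array 1 in 0. IRE1dn array 1 was the lowest in 11 of the 17 probe sets.

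Other HIF targets outside glycolysis mostly had higher values in IRE1dn cells. Of 37 with a probe set, 19 rose (51.4%) and 2 fell (5.41%), against 9.2% and 8.67% of all genes. Their median log2 difference was 0.84, against 0.017 over all genes. Of the 37, 34 lay above the dim mark, where the shares of all genes were 13.2% and 12.5%. Leaving out 1 array at a time left 13 to 20 that rose, with 4.13% to 9.58% of all genes called higher in the same fits. The list was chosen with earlier results of these data known, so its count describes these arrays.

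The 4 with the largest increases were EDN1, IGFBP3, STC2 and LOX. EDN1, the vasoconstrictor endothelin, measured 202, 270.4 and 218 units on IRE1dn arrays, against 0.931, 5.69 and 3.18 units on ctrl arrays. All ctrl values lay under the dim mark, so its log2 difference of 5.64 (SE 0.37) depends on the pseudocount. LOX, which crosslinks collagen, rose by 2.78 (SE 0.16; limma adjusted p = 2.3e-05) and STC2, a secreted glycoprotein, by 3.20 (SE 0.46; limma adjusted p = 0.00252). IGFBP3, a carrier of insulin-like growth factors, measured 1651, 1883 and 2083 units on IRE1dn arrays, against 72.9, 70.2 and 942 units on ctrl arrays, where array 3 again stood apart. Its difference was 3.44 (SE 0.82; limma adjusted p = 0.0217), and the call ended without any single array except ctrl array 3.

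The 2 that fell were NT5E and HMOX1. NT5E, the ectoenzyme CD73 that makes adenosine, measured 496, 483 and 473 units on IRE1dn arrays, against 1111, 1454 and 1511 units on ctrl arrays (log2 difference -1.47, SE 0.16; limma adjusted p = 0.000675). HMOX1, heme oxygenase, which is also a target of oxidative stress factors, measured 124, 102 and 103 units on IRE1dn arrays, against 193, 352 and 263 units on ctrl arrays (-1.24, SE 0.22; limma adjusted p = 0.00681). VEGFA, an angiogenic factor and HIF target, was named after its values were seen: it measured 879 units in IRE1dn cells and 786 units in ctrl cells, a difference of 0.16 (SE 0.15; limma adjusted p = 0.548).

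**Figure D4:**
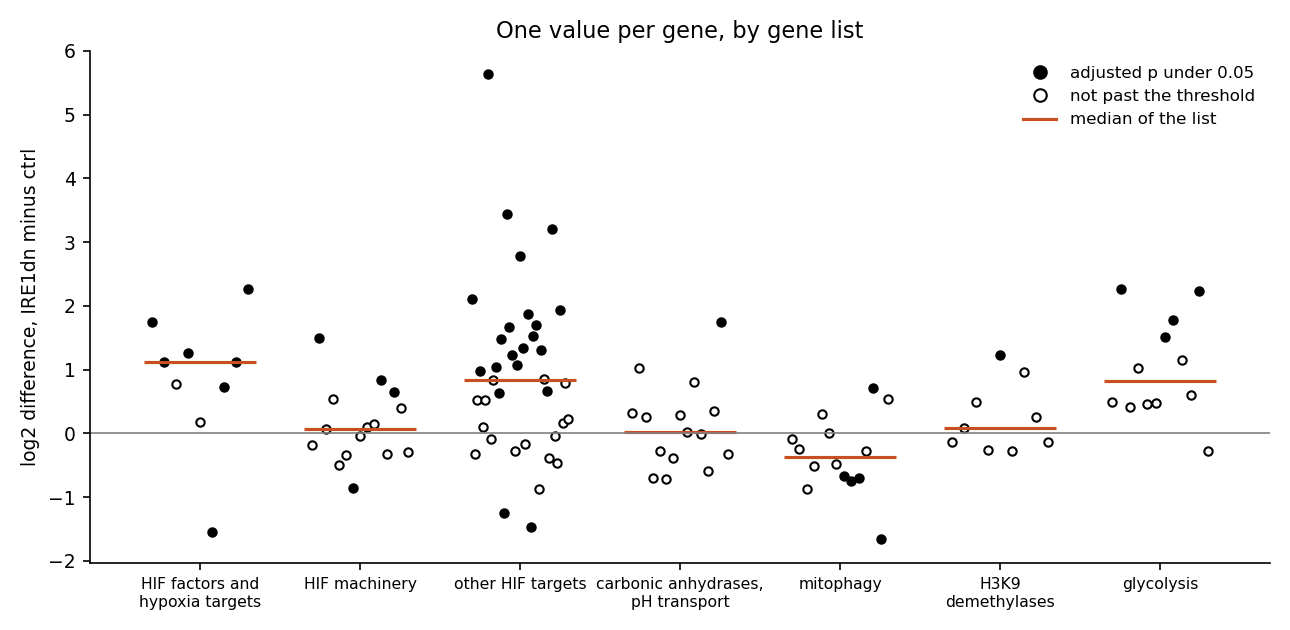
Log2 difference (IRE1dn minus ctrl) of each gene of 7 lists, 1 probe set per gene, with filled points past an adjusted p of 0.05 and a bar at the median of the list. The medians of the HIF genes and targets studied here (1.12), other HIF targets (0.84) and glycolysis (0.81) lie above 0, and that of mitophagy (-0.37) lies below it.

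Of 12 glycolysis genes, which are HIF targets too, 4 rose (33.3%, against 9.2% of all genes) and the other 8 did not pass, with a median log2 difference of 0.81, led by ALDOC (2.26, SE 0.35) and the glucose transporter SLC2A1 (2.23, SE 0.28). The count was 6 without ctrl array 3, where 9.58% of all genes were called higher. All 12 lay above the dim mark, and of all genes above it 13.2% were called higher in the fit of all 6 arrays. PGK1 did not pass through its brightest probe set, but all 4 of its probe sets had higher values and 2 passed.

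Genes with the most similar profile over the 6 arrays were named for HIF1A, EPAS1 and NDRG1 by Pearson correlation of log2 signal among 7807 genes above the dim mark. HIF1A was closest to MRE11, PRPS1 and MAPRE1 (r of 0.998, 0.995 and 0.994), EPAS1 to BIN3, TOM1L1 and PELO (0.998, 0.997 and 0.997), and NDRG1 to CD24, VDR and EID1 (0.998, 0.997 and 0.997). Because the 2 groups dominate such a profile, 291, 250 and 204 genes reached an r of 0.95 with HIF1A, EPAS1 and NDRG1, so these names describe rank only.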

How the data were processed

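The authors deposited 1 linear signal intensity per probe set and array, 22277 rows, of which 62 are control probe sets. The submitters' processing notes name GCOS 1.2, while how probes were summarised and background removed is not given in the sources used here. The deposited values have equal trimmed means (100.0 units after trimming 2% at each end), so a change shared by all transcripts would not be seen. The number of arrays limits the precision.

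Signals were transformed to log2(signal + 1.75), the pseudocount being the 20th percentile of all values, which makes fold changes of dim genes smaller. Platform annotation gave 19064 probe sets with 1 gene symbol, 1043 with several and 2108 with none listed, and 19052 of the first matched the RefSeq table (GRCh38.p14). All 22215 non-control probe sets, with no filter, were tested with limma 3.58.1 (R 4.3.3), as a linear model of 3 against 3 arrays without covariates whose moderated variances follow the mean signal, two-sided, and the test was checked on simulated data. Adjusted p-values are by Benjamini-Hochberg over all probe sets, and differences are IRE1dn minus ctrl. A gene was called through its probe set with the highest mean. The genes named from each list were up to 4 higher and 4 lower genes past the threshold with the largest differences and no overlap between groups, plus VHL, HIF1AN, EGLN2 and ARNT. Alternatives were other pseudocounts, scalings, filters, variance models, probe set rules and array weights, a replicate block, and arrays left out. The genes and lists were chosen with earlier results of these data known.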

Additional observations from a re-analysis of the deposited data

How the results depend on the processing

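The 6 higher genes and 1 lower gene kept these counts with pseudocounts of 1 and 16, quantile normalization, equal medians, a filter, robust variances, array weights, 1 probe set per gene and the mean of a gene's probe sets. Without an intensity trend 5 genes and 7 probe sets were higher, and 2178 probe sets of the whole array passed in place of 3377. With the mean of a gene's probe sets 2139 values passed, over fewer tests. With 1 probe set per gene, 1 of these probe sets was lower, since only 1 of EPAS1 was tested. Leaving out 1 array gave 1364 to 3438 probe sets on the whole array, 7 to 13 higher and 1 to 2 lower among the 17, and 5 to 7 higher genes. The 13 came without ctrl array 3. With ctrl array 2 and IRE1dn array 3 both left out, 848 probe sets passed on the whole array, 4 higher and 1 lower among the 17, and 2 genes (EGLN1 and BNIP3L) were higher, while NDRG1, HIF1A, BNIP3 (201849_at) and KDM3A kept differences of 1.86, 0.64, 1.40 and 1.01 (limma adjusted p of 0.0571 to 0.0940); fewer samples lower the power. The 2 dim probe sets changed sign: without 1 array CA12 204509_at ranged from -0.31 to 0.24 and EGLN3 from -0.064 to 0.41; CA12 204509_at was 0.24 without IRE1dn array 3, 0.22 without ctrl array 3 and 0.18 without both arrays named above, and EGLN3 was -0.064 without IRE1dn array 3 and -0.12 without both; the cause was not tested. Over 7808 genes above the dim mark, deviations of same-numbered arrays from their group means had correlations of -0.0906, 0.045 and 0.0151. No pairing by number was seen over these genes, and the labels do not say whether the numbers pair the arrays. Among the 9 genes studied here, array 3 was above its group mean in 8 in IRE1dn cells and in 9 in ctrl cells. A pairing limited to such genes was not tested. With the replicate block 2746 probe sets passed, 8 of the 17 were higher and 2 lower, and 6 genes were higher and 1 lower. In that fit the SE was 0.31 in place of 0.40 for NDRG1, 0.23 in place of 0.29 for BNIP3 (201849_at) and 0.22 in place of 0.32 for CA12 (203963_at). EPAS1 (200878_at) and EGLN3 had slightly smaller SEs too. Those of HIF1A, EGLN1, BNIP3L (221478_at) and KDM3A were larger, at 0.17, 0.19, 0.16 and 0.19. CA12 (203963_at) still did not pass (limma adjusted p = 0.0580).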
